A study of Mus musculus with 8 samples.

Results

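The CD300 receptors are a family of small cell-surface proteins of myeloid cells, and in the mouse all but one of their genes stand side by side on chromosome 11. All peaks of open chromatin whose nearest gene in the deposited table has a name beginning with Cd300 were taken, which gave 41 of the 67822 peaks and 9 of the 16095 genes with a peak. Genes were selected on their name and, up to 10 of them, on total tags over the 8 libraries. With 9 genes the limit removed none, and the gene with the fewest tags, Cd300ld, held 168. The libraries came from CD11b-positive microglia of the forebrain, 4 from Nlrp3 knockout mice (Cias1 knockout, named Nlrp3-/- and credited to Millennium Pharmaceuticals) and 4 from wild-type mice (C57BL/6N). NLRP3 is the sensor of an inflammasome, and the study concerns NLRP3, the use of glutamine and microglia in Alzheimer's disease. About 500000 cells, released from tissue and freed of myelin, were bound to magnetic columns and their chromatin was cut and tagged by a transposase (ATAC-seq). Neither age nor sex of the mice was given in the sources used here. The labels also do not tie replicates to separate animals, so a p-value here speaks of spread among samples that may be partly technical.

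CD300 receptors bind lipids such as phosphatidylserine that dying cells and activated cells expose. Some carry an inhibitory motif (ITIM) in their tail and recruit phosphatases, while others have a short tail and signal through adaptors with an activating motif (ITAM), so that one family holds brakes and accelerators of phagocytosis and cytokine release. Cd300a and Cd300lf encode inhibitory members. Cd300lb, Cd300ld, Cd300e, Cd300c and Cd300c2 belong to the members with short tails or adaptors, with the pairing of CD300c and CD300e known best from human cells. Cd300lg encodes nepmucin, a mucin-like member of endothelial cells.

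Of the 41 peaks, 38 lay in a cluster of 265 kb on chromosome 11 (114877140 to 115142326, mm10), and 3, those of Cd300lg, lay 12816 kb before it. In genome order the cluster held 8 peaks of Cd300a, 8 of Cd300lb, 3 of Cd300c, 2 of Cd300ld, 4 of Cd300c2, 2 of Cd300ld3, 7 of Cd300e and 4 of Cd300lf. The peaks are numbered 1 to 41 along the chromosome below. Intergenic peaks made up 51.2% of them, against 30.3% of all peaks in the list, and 14.6% were promoter peaks, against 19.5%. RefSeq names 12 Cd300 genes on this chromosome, and 3 of them, Cd300ld2, Cd300ld4 and Cd300ld5, had no peak assigned to them. A peak is assigned to the nearest start site, which need not be the gene it acts on. Peaks 26 and 27, assigned to Cd300c2, overlap the RefSeq body of Cd300ld4, and peak 28 overlaps those of Cd300ld4 and Cd300ld2. All 4 peaks of Cd300lf lie inside Rab37, the gene of a Rab GTPase that overlaps Cd300lf. Peak 3, assigned to Cd300lg, overlaps the RefSeq body of Mpp2 and not that of Cd300lg.

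The sequences upstream of 5 genes show how far apart, and how close, these neighbours are. Promoter sequences from RefSeq (GRCm38.p6) were found for 8 of the 9 genes, and for Cd300ld4 and Cd300ld5. Each line gives the 250 bases before the start site, 5′ to 3′ on the gene's strand, which is the minus strand for all 5. Capitals mark matches to the motifs searched. The upstream regions are chr11:115133993-115134242 for Cd300lf, chr11:114934372-114934621 for Cd300lb, chr11:114989887-114990136 for Cd300ld, chr11:115048331-115048580 for Cd300ld3 and chr11:115026934-115027183 for Cd300ld4.
Cd300lf: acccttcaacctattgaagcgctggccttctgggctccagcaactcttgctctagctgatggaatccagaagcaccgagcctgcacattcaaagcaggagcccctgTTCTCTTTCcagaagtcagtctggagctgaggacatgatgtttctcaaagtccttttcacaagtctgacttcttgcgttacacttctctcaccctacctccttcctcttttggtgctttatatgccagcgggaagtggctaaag
Cd300lb: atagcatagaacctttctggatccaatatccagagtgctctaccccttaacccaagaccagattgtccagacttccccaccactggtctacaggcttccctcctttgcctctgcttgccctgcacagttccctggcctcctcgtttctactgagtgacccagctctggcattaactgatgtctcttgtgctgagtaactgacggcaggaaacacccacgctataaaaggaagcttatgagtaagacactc
Cd300ld: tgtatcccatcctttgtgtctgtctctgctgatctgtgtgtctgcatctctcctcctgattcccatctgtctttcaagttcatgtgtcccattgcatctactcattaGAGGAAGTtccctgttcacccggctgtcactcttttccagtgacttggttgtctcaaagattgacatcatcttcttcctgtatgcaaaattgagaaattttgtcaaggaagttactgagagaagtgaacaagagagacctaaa
Cd300ld3: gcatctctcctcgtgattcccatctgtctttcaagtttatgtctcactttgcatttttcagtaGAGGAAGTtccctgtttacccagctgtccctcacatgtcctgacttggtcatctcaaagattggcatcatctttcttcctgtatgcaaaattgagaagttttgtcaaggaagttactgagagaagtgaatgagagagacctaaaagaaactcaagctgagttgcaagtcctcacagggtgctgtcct
Cd300ld4: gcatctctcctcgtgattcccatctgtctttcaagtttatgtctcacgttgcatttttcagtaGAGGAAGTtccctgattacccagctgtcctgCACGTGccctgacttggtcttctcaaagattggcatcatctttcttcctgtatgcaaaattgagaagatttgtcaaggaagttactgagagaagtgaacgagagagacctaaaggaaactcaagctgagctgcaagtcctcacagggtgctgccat

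Over 300 bases, which include 50 bases after the start site, the promoters of Cd300ld4 and Cd300ld5 were identical to each other. The promoter of Cd300ld3 matched them at 95.0% of positions, and the longest run of bases shared without a difference was 47 bases, shorter than the 51 cycles of a read. Cd300ld matched Cd300ld3 at 64.8% of aligned positions, and the median over the 45 pairs of promoters was 47.9%. A read of the Cd300ld4 or Cd300ld5 promoter has no single place in the genome, and a read of the Cd300ld3 promoter can differ from them by few bases. The authors' setting for reads that fit several places was not given in the sources used here. Peak 29 covers the whole upstream stretch printed for Cd300ld3. The near-identical stretches of Cd300ld4 and Cd300ld5 had no peak in the list, so the values of Cd300ld3 are uncertain.

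Motifs were searched on both strands of the 250 upstream bases, and matches are descriptions of letters, not of binding. GAGGAAGT, a form of the PU.1 motif of macrophage genes, was found in Cd300ld and Cd300ld3 among the 8 member promoters and in 2.44% of 32851 RefSeq promoters of this length. GAAANNGAA, an interferon regulatory factor motif, was found in Cd300c and Cd300lf, against 7.13% of all promoters. In Cd300lf it stands at bases -144 to -136 from the start site, within the 169 upstream bases that peak 39 covers. TTGCNNAA of C/EBP factors was found in Cd300a (9.56% of all) and TGTGGT of RUNX factors in Cd300c and Cd300c2 (14%), while the palindromic TTGCGCAA (0.164%), TGANTCA of AP-1 (6.75%) and CACGTG, the E-box (6.02%), were found in none of the 8. The upstream regions of Cd300lb and Cd300e held none of these letters. A peak overlapped the 250 bases in 7 of the 8 genes, and in Cd300c2 the nearest peak lay after the start site.

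Depth decided how finely single peaks could be read. Total tags were between 11325865 and 15521580 per library, but the share of tags in peaks was 6.68%, 4.96%, 20.9% and 26.2% in knockout replicates 1 to 4, against 17.5%, 9.79%, 12.8% and 14.4% in wild-type replicates 1 to 4. Knockout libraries averaged 14.7% ± 10.5 and wild-type libraries 13.6% ± 3.20 (SD, n = 4 each), a difference within the spread (exact permutation test, two-sided, p = 0.83). The 41 peaks held 421 to 2274 tags per library, fewest in knockout replicate 2. The genotype labels held: over both promoter peaks of Nlrp3 the knockout libraries had 1 and 2 tags in all, against 58 to 80 and 54 to 69 tags in each wild-type library.

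Levels are given as CPM, tags per 1000000 tags in tested peaks after TMM scaling. Counting only tags in peaks scales for the unequal share in peaks, and the TMM factors changed little, from 0.987 to 1.012. Whether differences in background between libraries remain after this scaling was not tested. Differences are log2 of knockout over wild type with their standard error, from edgeR's quasi-likelihood test over all 58135 peaks that passed the filter on low counts, with Benjamini-Hochberg adjustment over all of them. Of the 41 peaks, 37 passed that filter. A change was called at an adjusted p under 0.05.

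In the Nlrp3 knockout libraries, 2 peaks of the cluster fell, 1 past the far end of Cd300lb and 1 in an intron of Cd300lf, and none rose. Lower calls made up 0.115% of all tested peaks. The same lean was present more widely and mostly without passing the test: 32 of 37 tested peaks had a log2 difference below 0, against 49.5% of all tested peaks. The median log2 difference of the 37 was -0.26, against 0.00 for all peaks. The 37 include 8 peaks listed in wild type alone and 0 listed in knockout alone. When libraries were scaled to all tags instead, 25 of the 35 tested peaks of the cluster lay below 0, with a median of -0.21 beside 0.10 for all peaks, and none was called. At an unadjusted p under 0.05, 11 peaks were lower in knockout (2.22% of all peaks) and 1 was higher (2.61%). Knockout replicates 1 and 2 had the lowest shares of tags in peaks and knockout replicates 3 and 4 the highest. The count of peaks lower at this p was 8 without the first pair (4.31% of all peaks in that fit) and 12 without the second (4.39%). It was 8 with DESeq2 (0.862%) and 1 with scaling to all tags (0.163%). In 7 of the 37 every knockout library lay below every wild-type library (1.49% of all peaks), and in none did every knockout library lie above (1.68%). In these bulk libraries, fewer cells with an open site and less opening per cell cannot be told apart.

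**Figure D1:**
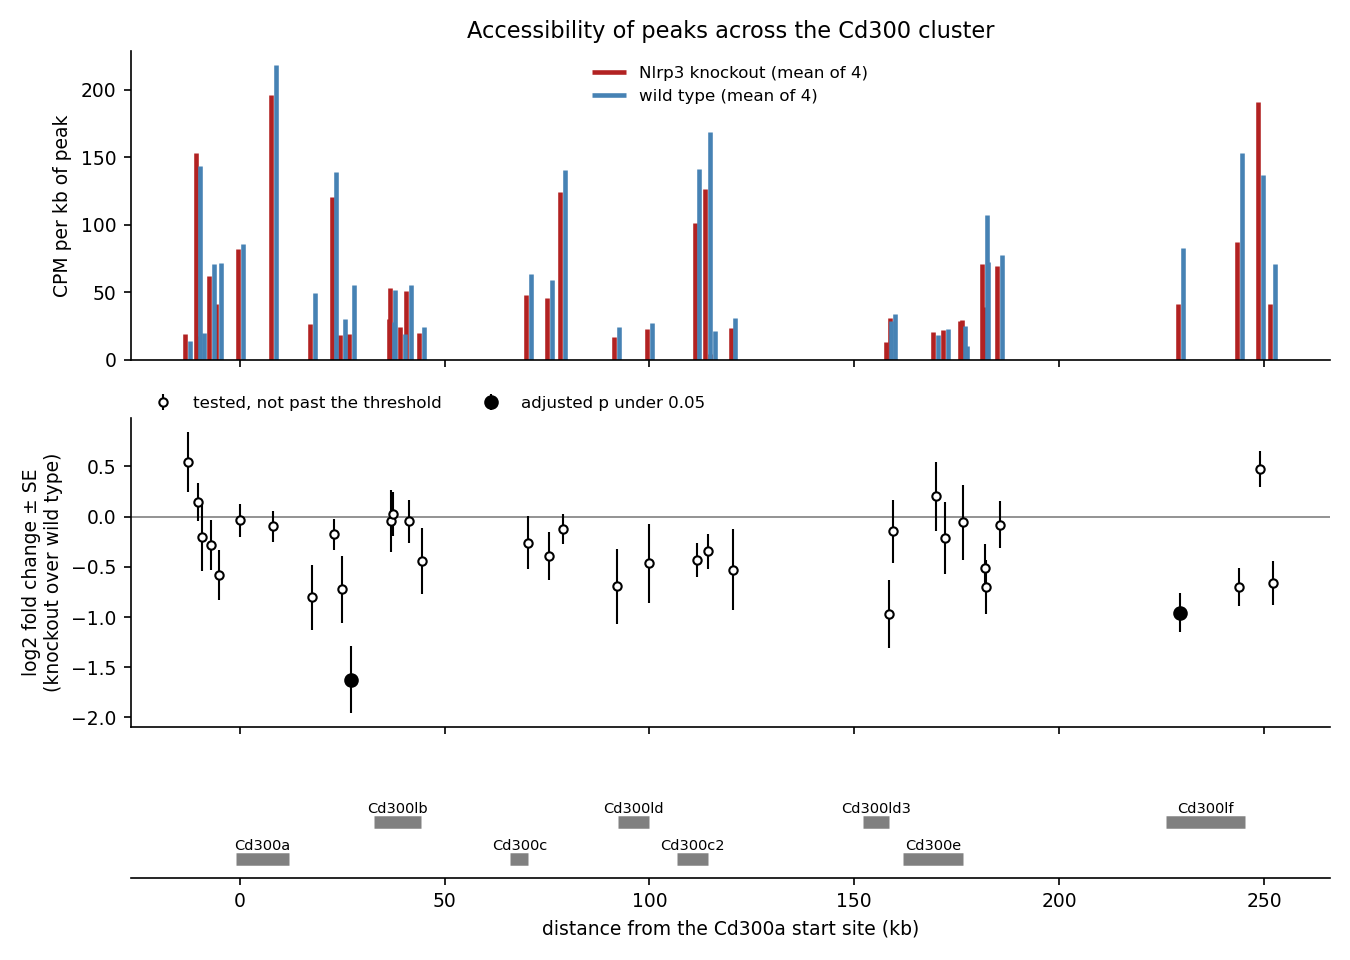
Peaks of the Cd300 cluster against the distance of their centre from the Cd300a start site in kb. Upper bars are mean CPM per kb of peak in 4 knockout and 4 wild-type libraries, points below are log2 differences ± SE of the tested peaks, with both called peaks filled, and grey boxes are the RefSeq genes; 30 of the 35 points lie below 0.

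Cd300lf encodes an inhibitory receptor for lipids exposed on dying cells. Its intronic peak 38 (chr11:115119452-115119769) had 12.1, 13.3, 12.7 and 14.9 CPM in knockout replicates 1 to 4, against 25.9, 26.7, 26.7 and 26.1 CPM in wild-type replicates 1 to 4. The genotypes did not overlap, with 13.2 ± 1.20 CPM in knockout libraries and 26.3 ± 0.45 CPM in wild-type libraries (SD, n = 4 each). The peak fell by 0.96 ± 0.20 on the log2 scale (adjusted p = 0.0313), on counts of 10, 9, 29 and 46 tags in knockout libraries and 52, 38, 47 and 56 tags in wild-type libraries. Counts this small carry a counting error of their own, which was not computed, so the small SDs are no measure of precision. It lies 14382 bases after the start site of Cd300lf and also inside Rab37. The call held in 4 of 16 alternatives. It was lost when any 1 library was left out (adjusted p = 0.0515 to 0.220) and with DESeq2 (adjusted p = 0.223). It was also lost without knockout replicates 1 and 2 together, without 3 and 4 together, and with scaling to all tags. With that scaling the log2 difference was -0.85 ± 0.72 (edgeR unadjusted p = 0.236). The log2 difference lay between -1.07 and -0.85 under all 16 alternatives.

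The promoter peak 39 of Cd300lf, whose upstream sequence is printed above, had 21.7, 14.8, 24.2 and 32.3 CPM in knockout libraries, against 41.8, 35.8, 38.1 and 47.5 CPM in wild-type libraries. Every knockout library was below every wild-type library, with knockout replicate 4 nearest to them. The log2 difference was -0.70 ± 0.19 and did not pass the test (adjusted p = 0.294). It passed only without knockout replicates 3 and 4 together, at -1.16 (adjusted p = 0.0178).

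The other peaks of Cd300lf lie upstream in Rab37 introns and had differences of opposite sign. Peak 41 (chr11:115142034-115142326) had 13.3, 7.38, 13.2 and 14.9 CPM in knockout libraries and 22.9, 19.7, 22.8 and 17.7 CPM in wild-type libraries, without overlap (log2 -0.66 ± 0.22, adjusted p = 0.741). Peak 40 (chr11:115138938-115139206) had 45.9, 56.1, 58.4 and 45.3 CPM in knockout libraries and 50.7, 35.1, 34.7 and 26.6 CPM in wild-type libraries. There wild-type replicate 1 lay among the knockout libraries, and the log2 difference of 0.48 ± 0.18 did not pass (adjusted p = 0.876). It was the single tested Cd300 peak higher in knockout at an unadjusted p under 0.05.

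Cd300a encodes the other inhibitory receptor, which binds phosphatidylserine and phosphatidylethanolamine. Its 8 peaks held the most tags of the 9 genes and none passed the test. The intronic peak 10 had 47.1, 32.5, 49.6 and 52.1 CPM in knockout libraries and 52.2, 51.3, 51.2 and 46.6 CPM in wild-type libraries, and peak 9 at the start site differed by -0.04 ± 0.16 on the log2 scale. Outside the gene the differences had both signs. Peak 8, at -5162 bases from the start site, had 6.03, 5.91, 12.7 and 12 CPM in knockout libraries and 13.9, 14.8, 17.6 and 16.8 CPM in wild-type libraries, without overlap (log2 -0.58 ± 0.25, adjusted p = 0.974). Peak 11, from the wild-type list only and past the end of the gene, differed by -0.80 ± 0.33 with overlap (edgeR unadjusted p = 0.0207, adjusted p = 0.943). Peak 4, the first of the cluster, had the highest log2 difference of all tested Cd300 peaks, 0.54 ± 0.30, within the spread.

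**Figure D2:**
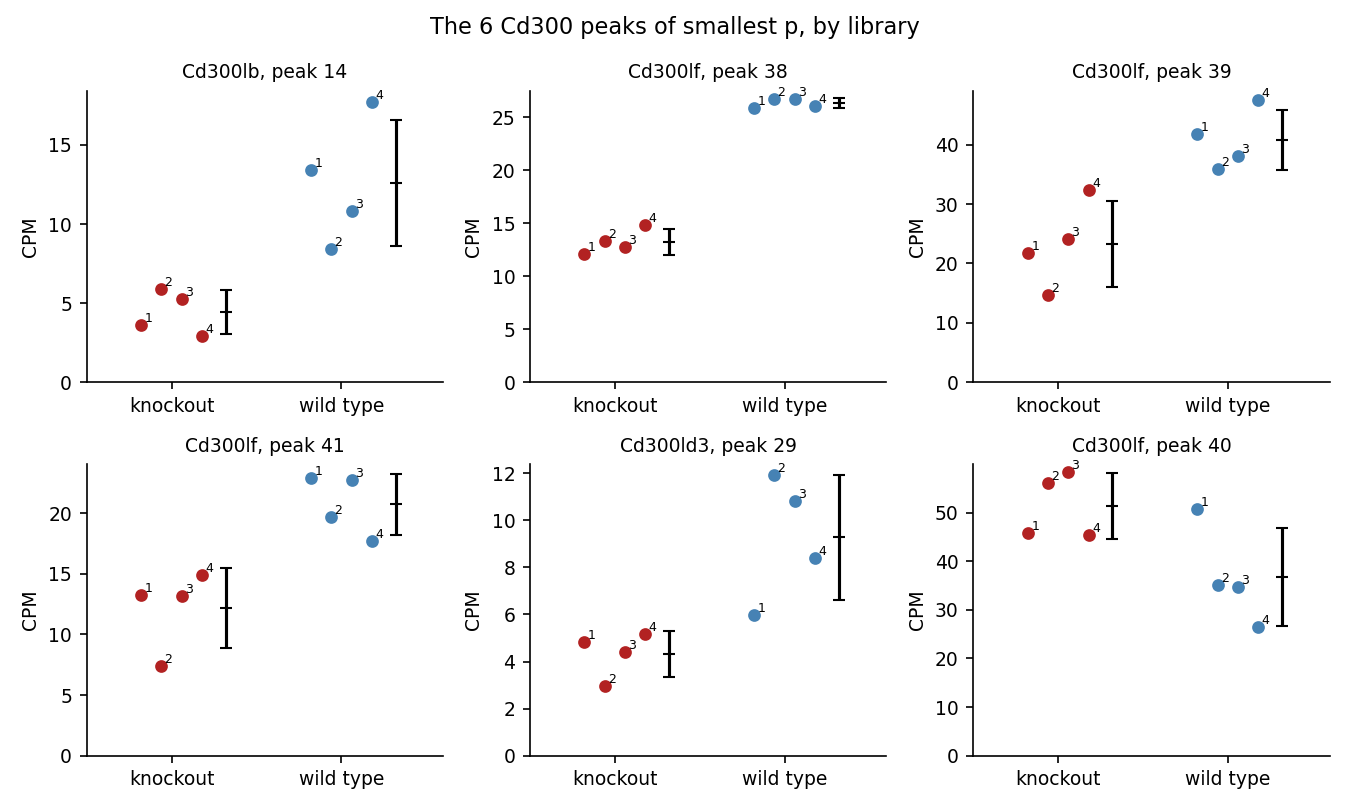
CPM of the 6 Cd300 peaks with the smallest p, in knockout libraries on the left and wild-type libraries on the right of each panel. Points are libraries with their replicate number, and bars are the mean ± SD of 4; the genotypes overlap only in peak 40, and peak 38 shows 13.2 CPM in knockout libraries beside 26.3 CPM in wild-type libraries.

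Cd300lb encodes an activating receptor that pairs with the adaptor DAP12, the product of Tyrobp. Its intergenic peak 14 (chr11:114917197-114917423) had 3.62, 5.91, 5.27 and 2.91 CPM in knockout libraries, against 13.4, 8.43, 10.8 and 17.7 CPM in wild-type libraries. No knockout library reached the lowest wild-type library. The peak fell by 1.62 ± 0.33 on the log2 scale (adjusted p = 0.0298), the largest difference among the tested Cd300 peaks, on 3, 4, 12 and 9 tags in knockout libraries and 27, 12, 19 and 38 tags in wild-type libraries. It lies 17076 bases after the start site, past the end of the gene toward Cd300a, and came from the peak list of the wild-type libraries only. The call held in 7 of 16 alternatives. It was lost with DESeq2 (adjusted p = 0.174) and without knockout replicate 1, 3 or 4 or wild-type replicate 1, 3 or 4. It was also lost without knockout replicates 3 and 4 together and with scaling to all tags (log2 -1.58 ± 0.69, edgeR unadjusted p = 0.0219). The log2 difference lay between -1.84 and -1.35.

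The neighbours of peak 14 had smaller log2 differences, and none was called. Peak 13, the nearest on the side of Cd300a, had 3.62, 5.91, 5.71 and 4.53 CPM in knockout libraries and 8.95, 8.43, 10.2 and 5.59 CPM in wild-type libraries (log2 -0.72 ± 0.33, edgeR unadjusted p = 0.0392). Peak 12, among the strongest of the cluster with 45.4 ± 9.34 CPM in knockout libraries and 52.2 ± 5.29 CPM in wild-type libraries, differed by -0.18 ± 0.16. Peak 11, the next and assigned to Cd300a, differed by -0.80 ± 0.33. Inside Cd300lb, peaks 15, 16 and 18 differed by -0.04, 0.03 and -0.05, and promoter peak 19 by -0.44 ± 0.33.

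Among the other genes of short-tailed or adaptor-bound receptors, no peak passed the test. Cd300c2 had peak 25 near its start site with 29.0, 22.1, 30.7 and 32.7 CPM in knockout libraries and 43.3, 37.9, 34.7 and 43.8 CPM in wild-type libraries, all knockout libraries below all wild-type ones (log2 -0.43 ± 0.17, adjusted p = 0.916). Cd300ld3, one of the near-identical Cd300ld copies, had promoter peak 29 with 4.83, 2.95, 4.39 and 5.18 CPM in knockout libraries and 5.97, 11.9, 10.8 and 8.38 CPM in wild-type libraries (log2 -0.97 ± 0.34, adjusted p = 0.795). These ranges also did not overlap, though knockout replicate 2 held 2 tags there and the peak came from the wild-type list only. Cd300ld, whose product pairs with the Fc receptor gamma chain, had 2 weak peaks at log2 differences of -0.69 and -0.46 and wide errors (0.37 and 0.39). Both of these came from the wild-type list only. In Cd300c the strong distal peak 22 differed by -0.12 ± 0.15 and promoter peak 20 by -0.26 ± 0.26. The Cd300e peaks 35 and 36, at -9806 and -10142 bases from its start site, differed by -0.51 ± 0.23 and -0.70 ± 0.27, while its promoter peak 32 differed by -0.21 ± 0.36.

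Across the classes of site, all 6 tested promoter peaks had a log2 difference below 0 (49.5% of all tested peaks), between -0.97 and -0.21. None passed with edgeR or DESeq2, and 2, peaks 29 and 39, had an unadjusted p under 0.05 (2.22% of all peaks were lower at that p). Of the 6, peaks 24 and 29 came from the wild-type list only, where 73.8% of all tested peaks lay below 0. The class leaves out peak 9 of Cd300a and peak 25 of Cd300c2, both near a start site, which differed by -0.04 and -0.43. The 31 tested peaks outside the 6 with the smallest p lay between -0.80 and 0.54, with 27 below 0 and adjusted p of at least 0.902. The 4 peaks that missed the filter held 0 to 27 tags per library. They were peak 2 of Cd300lg, peak 17 of Cd300lb, peak 27 of Cd300c2 and peak 34 of Cd300e. Peak 27 had 2, 0, 1 and 2 tags in knockout libraries and 7, 7, 11 and 6 tags in wild-type libraries. Peak 34 had 5, 3, 16 and 27 tags in knockout libraries, 4.43 to 8.73 CPM, and 4, 3, 1 and 10 tags in wild-type libraries, 0.57 to 4.66 CPM.

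The list a peak came from bears on its direction, since a peak found only in the wild-type list was chosen for being seen there. Of the Cd300 peaks 29 were on both lists, 10 (24.4%) on that of wild type alone and 2 (4.88%) on that of knockout alone, against 16.3% and 8.18% of all peaks on these single lists. All 8 tested wild-type-only Cd300 peaks lay below 0 with a median log2 difference of -0.70, where 73.8% of all wild-type-only peaks did so with a median of -0.21. Among the Cd300 peaks on both lists, 24 of 29 lay below 0 with a median of -0.18, and 1 was called. All peaks on both lists had 47.8% below 0 and a median of 0.01.

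Summed over its peaks, each of the 8 genes of the cluster had a negative log2 difference. It turned above 0 for Cd300a when scaled to all tags (0.03) and for Cd300ld without knockout replicates 3 and 4 together (0.0026). None of the 9 passed the test over 15476 genes, of which 0.213% were called. The sums include peaks of the wild-type list only, a list on which 73.8% of all tested peaks lay below 0. These are both peaks of Cd300ld, peak 29 of Cd300ld3 and peaks 27 and 28 of Cd300c2. They are also peak 11 of Cd300a, peak 14 of Cd300lb and peaks 33 and 36 of Cd300e. At an unadjusted p under 0.05 edgeR had 3 of the 9 lower, Cd300c2, Cd300lf and Cd300lb, against 2.62% of all genes, and DESeq2 called none at an adjusted p under 0.05. Cd300c2 had 68.5, 46.3, 66.4 and 70.8 CPM in knockout libraries and 102, 80.4, 75 and 93.7 CPM in wild-type libraries, without overlap (log2 -0.43 ± 0.12, adjusted p = 0.309). Cd300lf had 90.9, 89.7, 105 and 103 CPM in knockout libraries and 138, 113, 114 and 112 CPM in wild-type libraries, also without overlap (log2 -0.27 ± 0.10, adjusted p = 0.617). No overlap with knockout lower was found in 1.67% of all genes. Wild-type replicate 1 stood above the other wild-type libraries in Cd300lf.

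**Figure D3:**
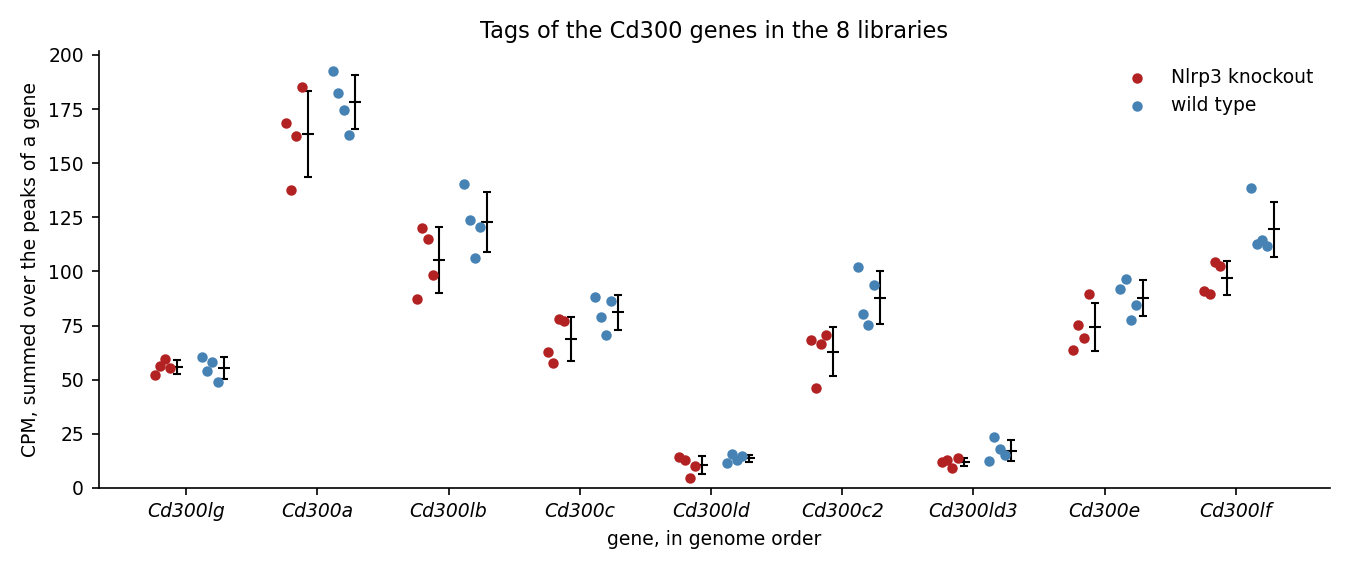
CPM summed over the peaks of each Cd300 gene, in genome order, with knockout libraries left and wild-type libraries right of each pair. Points are libraries and bars the mean ± SD of 4; the genotypes are apart in Cd300c2 and Cd300lf and overlap in the other 7 genes.

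The other 7 genes overlapped between genotypes. Cd300lb differed by -0.23 ± 0.11 (105 ± 15.1 CPM in knockout libraries, 123 ± 14 CPM in wild-type libraries), Cd300a by -0.09 ± 0.09, Cd300c by -0.18 ± 0.11 and Cd300e by -0.19 ± 0.11. The small sums of Cd300ld and Cd300ld3 differed by -0.56 ± 0.29 and -0.51 ± 0.25, and knockout replicate 3 was lowest in both, with 4.65 CPM in Cd300ld. Without that library the Cd300ld difference was -0.24. Cd300a lay between -0.17 and -0.04 with 1 library left out (without knockout replicate 4 and without knockout replicate 2), and Cd300e was -0.33 without knockout replicate 4. Cd300lg, far from the cluster, had 55.8 ± 3.19 CPM in knockout libraries and 55.4 ± 4.97 CPM in wild-type libraries (log2 0.02 ± 0.12). Most of this came from its intergenic peak 1, with 43.4 CPM in knockout libraries and 45.2 CPM in wild-type libraries. Over all 41 peaks the sum was 633, 622, 695 and 736 CPM in knockout libraries and 854, 799, 757 and 778 CPM in wild-type libraries. The sums did not overlap, and their means differed by -0.25 on the log2 scale, a description of peaks chosen with results known.

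Per kb of peak, knockout libraries had the order Cd300lg (84.7 CPM per kb), Cd300lf (84.5), Cd300c (76.5), Cd300c2 (66.0), Cd300a (63.7), Cd300lb (44.4), Cd300e (39.8), Cd300ld3 (20.5) and Cd300ld (19). Wild-type libraries had Cd300lf first (104 CPM per kb), then Cd300c2 (91.9), Cd300c (90.2), Cd300lg (84.1), Cd300a (69.4), Cd300lb (51.7), Cd300e (46.8), Cd300ld3 (29.7) and Cd300ld (24.9). In both genotypes the libraries of neighbours in this order overlapped, except between Cd300a and Cd300lb and between Cd300e and Cd300ld3. The genes thus formed an upper, a middle and a lower tier, and the lower tier was Cd300ld and Cd300ld3.

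The flanks of the cluster were set beside it. In the 200 kb before it, 5 of 14 tested peaks had a log2 difference below 0, with a median of 0.04, none called by edgeR or DESeq2 and none at an unadjusted p under 0.05. In the 200 kb after it, 18 of 31 did, with a median of -0.12. There edgeR called 1 lower and 1 higher (0.17% of all peaks in both directions), DESeq2 called none (0.112%), and 3 were lower and 1 higher at an unadjusted p under 0.05. Between the outermost Cd300 peaks, 3 further peaks are assigned to Rab37. One of them, at chr11:115083377-115083861 between Cd300e and Cd300lf, was named after its values were seen. It had 15.7, 14.8, 18.9 and 16.5 CPM in knockout libraries and 5.97, 7.03, 12 and 6.06 CPM in wild-type libraries, above without overlap, and missed the threshold (log2 1.13 ± 0.26, adjusted p = 0.0940). The cluster lies in a stretch of chromosome 11 (113101730 to 120571465) in which changed peaks follow each other within 2 Mb. This stretch was drawn from the called peaks themselves and ends at called peaks, so its share of calls is raised by how it was drawn. The 612 other tested peaks there had 9 lower and 6 higher calls by edgeR (0.17% of all peaks in both directions). DESeq2 made 9 calls there (0.112%). The log2 differences had a median of -0.03 and ranged from -3.98 to 4.08. Over chromosome 11 without Cd300, this stretch included, 4719 tested peaks had 11 lower and 6 higher calls. Nlrp3 lies on the same chromosome, with promoter peaks starting at 59541383 and 59542459. Whether this location bears on the Cd300 calls was not tested. For comparison, 13 tested peaks of Ms4a genes, another cluster of myeloid membrane proteins, had a median of 0.16. The 13 tested peaks of Trem genes had one of -0.04, with no call by edgeR or DESeq2 in either family. At an unadjusted p under 0.05, 1 Ms4a peak was higher (2.61% of all peaks) and 1 Trem peak lower (2.22%). In 2 Ms4a peaks every knockout library lay above every wild-type library (1.68% of all peaks).

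**Figure D4:**
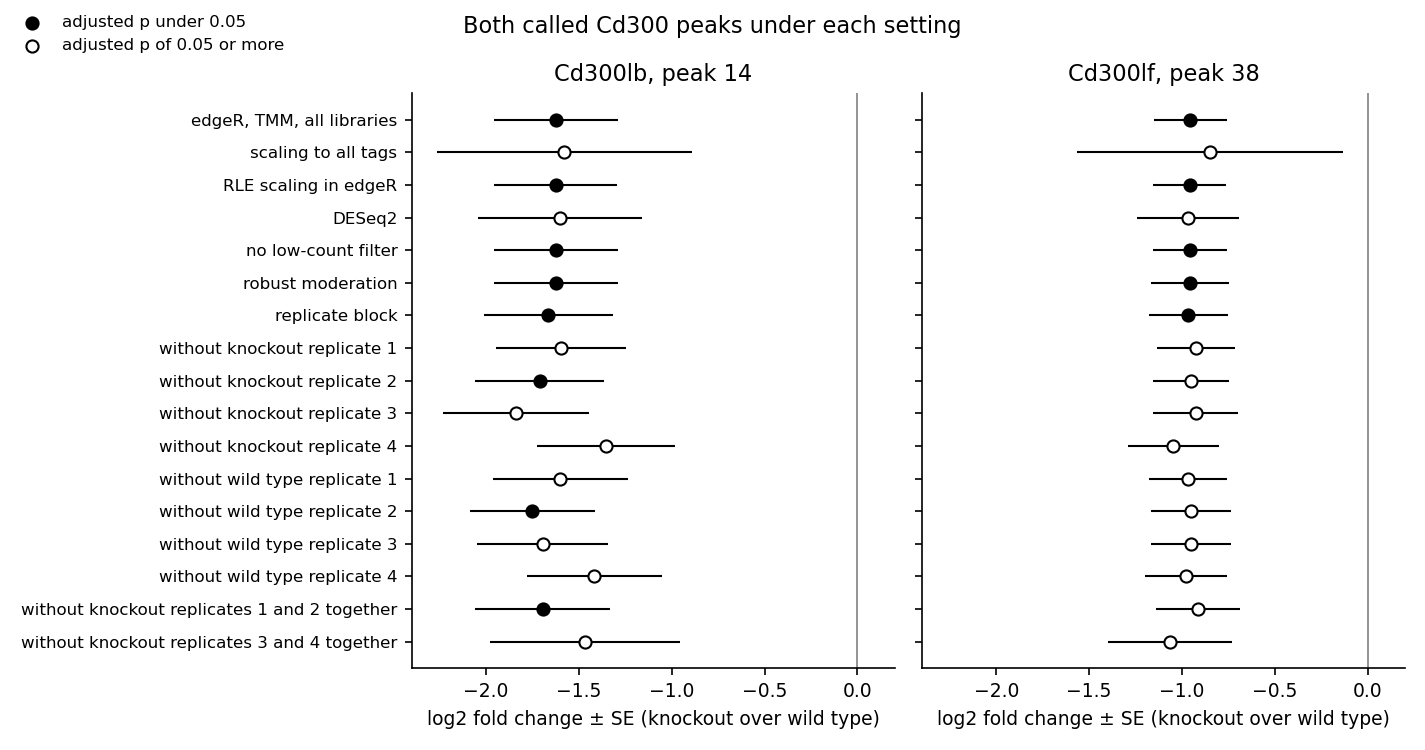
Log2 difference ± SE, knockout over wild type, of Cd300lb peak 14 and Cd300lf peak 38 in the main test and 16 alternatives. Filled points have an adjusted p under 0.05; every point lies below 0, while 7 alternatives for peak 14 and 4 for peak 38 pass.

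Genes that work with these receptors were described by 6 lists of 49 genes, of which 45 were tested as summed tags. None passed with edgeR, where 0.213% of all genes did. At an unadjusted p under 0.05 stood 4, all with a positive log2 difference, against 5.96% of all genes, and DESeq2 called 1, against 0.181% of all genes. The median log2 difference over all genes tested was 0.00. Of the ITAM and DAP10 adaptors, Fcer1g had 79.8 ± 12 CPM in knockout libraries and 71.9 ± 7.12 CPM in wild-type libraries, and Tyrobp had 161 ± 23.9 CPM in knockout libraries and 153 ± 16.9 CPM in wild-type libraries. The list's median log2 difference was 0.11. Of the phosphatases that inhibitory receptors recruit, Inpp5d differed by 0.14 ± 0.08 and Ptpn11 by 0.10 ± 0.16, with a list median of 0.10. Of the kinases and effectors of ITAM receptors (11 tested, median 0.03), Pik3r1, a regulatory subunit of PI3 kinase, had 670 ± 34 CPM in knockout libraries and 551 ± 51.9 CPM in wild-type libraries (log2 0.28 ± 0.08, edgeR adjusted p = 0.269, DESeq2 adjusted p = 0.0348). The catalytic subunit gene Pik3cd differed by 0.17 ± 0.07 (adjusted p = 0.797).

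Among the TREM family (6 tested, median -0.05), several of which signal through DAP12, Trem1 differed by -0.45 ± 0.29 and Trem2 by -0.15 ± 0.13. Of the other paired and inhibitory receptors (10 tested, median 0.05), Clec12a differed by 0.68 ± 0.29 and Sirpa, the receptor of the CD47 signal, by 0.19 ± 0.08, both with adjusted p of at least 0.758. Of the other receptors and bridging proteins for phosphatidylserine (11 tested, median 0.03), Stab2 differed by 0.64 ± 0.39 and Stab1 by 0.13 ± 0.10.

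Markers of microglia and other cells were read beside these values. All 10 microglia markers had a peak, and their summed level was 2292 to 2535 CPM in knockout libraries and 2032 to 2336 CPM in wild-type libraries, with none called. At an unadjusted p under 0.05 (5.96% of all genes), 3 of the 10 had positive log2 differences, Csf1r at 0.26, Tmem119 at 0.24 and Gpr34 at 0.28. So did 1 marker each of border macrophages (Ms4a7, 0.60), neurons (Syt1, 0.62) and astrocytes (Slc1a3, 0.33). Monocyte markers (4 of 5 with a peak, Chil3 without) summed to 223 to 443 CPM in knockout libraries and 276 to 378 CPM in wild-type libraries. Border macrophage markers (7 of 7) summed to 172 to 187 CPM in knockout libraries and 154 to 183 CPM in wild-type libraries. Granulocyte markers (3 of 7, without S100a8, Mpo, Retnlg and Camp) summed to 32.2 to 40.2 CPM in knockout libraries and 37.2 to 43.6 CPM in wild-type libraries. Endothelial markers (4 of 6), which bear on Cd300lg, summed to 358 to 431 CPM in knockout libraries and 353 to 392 CPM in wild-type libraries. Neuron markers (5 of 6) summed to 67.3 to 114 CPM in knockout libraries and 76.0 to 87.8 CPM in wild-type libraries. Astrocyte markers (5 of 5) summed to 365 to 516 CPM in knockout libraries and 320 to 402 CPM in wild-type libraries, and oligodendrocyte markers (3 of 6) to 388 to 449 CPM in knockout libraries and 363 to 397 CPM in wild-type libraries. The part of these cells in the Cd300 values was not tested.

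Over the 8 libraries the genes most like the summed Cd300 level, among 9719 with at least 50 tags per library on average, were Rnu11 on chromosome 4 (Pearson r = 0.964), Acvr2b on chromosome 9 (r = 0.950) and Actr2 on chromosome 11 (r = 0.933). These are the top of a long ranking over 8 points that fall into 2 genotypes and differ in depth, and none of the 3 genes passed the test (log2 -0.32, -0.48 and -0.17).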

How the data were processed

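Chromatin accessibility was measured by single-end ATAC-seq (51 cycles, gel-selected fragments of 165 to 250 bp) in 8 libraries. Bowtie2, HOMER, DESeq2 and mm10 are named in the submitters' processing notes. Per the file headers, the authors merged IDR peak lists of both genotypes and counted tags per peak with HOMER, at most 3 per position. The deposited raw counts were used, and the deposited normalized table was not. Alignment settings, any shift for the transposase and duplicate removal were not given in the sources used here. All 8 value columns were matched to samples by name.

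Peaks, and tags summed per gene, were tested with edgeR 4.0.16 (R 4.3.3; TMM, filterByExpr at a minimum count of 10, genotype as the only term). Adjusted p-values are Benjamini-Hochberg over all 58135 peaks or 15476 genes tested. The SE is the log2 fold change divided by the root of F. Peaks without a gene (117, 0.134% of tags in peaks) stayed out of gene sums. DESeq2 1.42.0, other scalings, no filter, robust moderation, a replicate block and left-out libraries were alternatives. Named were the called peaks or, with fewer than 6, the 6 of smallest p, every member gene, and per list the called genes and the 2 of smallest p. Other peaks and marker genes named serve as location, contrast or defining markers. The 15 lists and the members were chosen with earlier results of these data known, and the lymphocyte list is not reported here. No 2 libraries agreed within sampling noise. Intervals of single counts were not computed, and errors are between libraries.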

Additional observations from a re-analysis of the deposited data

Results flagged for a closer look

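In groups of 4 libraries, 3 of 96 sets of values held 1 library far from the other 3, and chance flags about 1 in 20. At Cd300a peak 9, over the start site, wild-type replicate 1 had 45.2 CPM, while the other wild-type libraries had 35.9 to 37.2 CPM. At Cd300e peak 33, wild-type replicate 3 had 3.98 CPM, while the others had 6.32 to 6.52 CPM. In the summed tags of Cd300lf, wild-type replicate 1 had 138.5 CPM, while the others had 112 to 114 CPM.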

How the results depend on the processing

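Calls of single Cd300 peaks depended on the setting, while the lean did not change sign. The count of called Cd300 peaks, 2, was 0 with scaling to all tags and with DESeq2, 1 without knockout replicates 1 and 2 together (peak 14), 1 (peak 39) when replicates 3 and 4 were dropped instead, and 0 to 1 when 1 library was left out. The median log2 difference of the cluster stayed between -0.33 and -0.20 in all 16 alternatives. No Cd300 gene was called in any of these alternatives.

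Over all peaks, 99 were called, 19 with scaling to all tags, 65 with DESeq2, 246 without knockout replicates 1 and 2, 782 without replicates 3 and 4 in their place, and 65 to 123 with 1 library left out. The calls were 32 higher and 67 lower, but 66 higher and 57 lower without knockout replicate 4 and 702 higher and 80 lower without replicates 3 and 4. Over all genes, 33 were called, 5 with scaling to all tags, 70 without knockout replicates 1 and 2, 115 without replicates 3 and 4, and 20 to 42 with 1 library left out. Knockout minus wild type in percent of tags within peaks, 1.07, was 9.95 without knockout replicates 1 and 2, -7.81 without replicates 3 and 4, and -2.77 to 4.32 with 1 library left out. The summed Cd300lg difference of 0.02 ranged over -0.036 to 0.070 with 1 library left out, below 0 without knockout replicate 3 (-0.020) and without wild-type replicate 4. It was -0.039 when knockout replicates 3 and 4 were both dropped. Cd300a turned to 0.029 with scaling to all tags and Cd300ld to 0.0026 without knockout replicates 3 and 4, each within its error. The cause was not tested.

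Shared replicate numbers gave no clear pairing of the libraries: the correlations of deviations were -0.0078, 0.096, -0.0083 and 0.15 for replicates 1 to 4. Wild-type replicates 2 and 4 were most like the knockout library of their own number, and wild-type replicates 1 and 3 were not. A replicate block gave 140 peaks, 38 genes and the same 2 Cd300 peaks. Depth limits the weak peaks most, since knockout replicate 2 had 421 tags over the 41 peaks.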
